A study of Homo sapiens with 6 samples.

Results

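The interferon regulatory factors (IRFs) other than IRF4 were IRF1, IRF2, IRF3, IRF5, IRF7, IRF8 and IRF9. These 7 genes were taken from the 63677 genes of the deposited table by matching Ensembl identifiers to the symbols, on primary chromosomes. The cells were RPMI8226, an established human multiple myeloma line with the genotype given as wild type, so all values come from 1 cell line. They received either 100 nM GST-PTR1 or 100 nM GST for 6 hr. GST-PTR1 joins glutathione-S-transferase (GST) to the PTR1 domain of HAPLN1, a protein of the extracellular matrix, and GST without that domain is the control. Both proteins were recombinant and made in bacteria, and each treatment had 3 libraries of mRNA from biological replicates. The comparison asks how the PTR1 domain changed the transcriptome of these cells.

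IRFs are transcription factors that share a DNA-binding domain for the interferon-stimulated response element and related sites. IRF3, IRF5 and IRF7 wait in the cytoplasm and are activated by kinases downstream of Toll-like receptors and nucleic acid sensors, IRF9 works with STAT2 below the interferon receptors, and IRF1, IRF2 and IRF8 are largely governed by how much of each is made. In B cells IRF8 is known for its part in the germinal center, and IRF4, the member left aside here, for the plasma cell state.

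The GST libraries held 15202503 to 23453473 counts and the GST-PTR1 libraries 22874133 to 44688737. The members had 146 to 10391 counts in any library, so each member was well above the limit of detection of 3 counts. On library totals 3 counts were 0.1279 to 0.1973 CPM with GST and 0.06713 to 0.1312 CPM with GST-PTR1, so low counts were not read at equal depth. Libraries are named by treatment and by the number in the table's header, GST 003, 004 and 005 and GST-PTR1 002, 004 and 005. The labels do not say whether a shared number pairs libraries, and the edgeR fit of all 6 libraries used no pairing. Levels are given as CPM, counts scaled to the library's total after edgeR's TMM factors, and as RPKM, the same values per kilobase of exon, where genes are compared with each other. Scaling by library totals alone moved the median log2 fold change over all genes by -0.20. Among plasma cell markers all 7 were tested. Of these 2 rose (PRDM1 and SLAMF7) and 3 fell (SDC1, TNFRSF17 and XBP1), beside 9.15% of all genes tested called higher and 11.4% lower. The summed level of the list was 590 to 788 RPKM with GST and 526 to 621 RPKM with GST-PTR1. The 4 T cell markers had at most 3 counts in every library, and LYZ did too among 4 myeloid markers, whose summed level was 0.239 to 0.45 RPKM with GST and 0.197 to 0.329 RPKM with GST-PTR1. CSF1R had 2 to 14 counts, ITGAM 1 to 8, and CD14 0.428 ± 0.129 CPM with GST and 0.365 ± 0.138 CPM with GST-PTR1. Of 4 stromal markers COL1A2 and COL3A1 were at 0 and COL1A1 had 4 to 13 counts, with a summed level of at most 0.0547 RPKM. Of 3 NK cell markers NCR1 was at 0 and KLRD1 had 0 to 2 counts. NCAM1 was present and fell (log2 fold change -0.51, adjusted p = 0.0424 in edgeR's quasi-likelihood test). With it the NK cell list summed to 4.53 to 6.46 RPKM with GST and 3.05 to 4.17 RPKM with GST-PTR1. EPCAM was present in every library. The part of these markers in the results below was not tested. In bulk RNA, a smaller share of cells that make an mRNA and less of it per cell cannot be told apart.

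Of the 7 members 5 rose with GST-PTR1 (IRF1, IRF8, IRF2, IRF7 and IRF5) and 2 (IRF3 and IRF9) did not pass the test. All 7 passed the filter on low counts. The test was the quasi-likelihood test of edgeR, with p-values adjusted by Benjamini-Hochberg across the 16926 genes that passed this filter, and the threshold was an adjusted p under 0.05. The number of members that fell was 0, also at an unadjusted p under 0.05 and with DESeq2 and limma's voom. In the edgeR test 9.15% of all genes were called higher and 11.4% lower, and with library totals 5.48% were higher and 22.4% lower. Changes of at least 2-fold were found for 2 members, IRF1 and IRF8, beside 3.68% of all genes, and of at least 1.5-fold for 5 members beside 5.95%. The libraries of the 2 treatments did not overlap for 5 members, beside 40.4% of all genes, and 19.2% of all genes were higher without overlap. The median log2 fold change was 0.74 over the 7 members and 0.01 over all genes tested. With library totals these medians were 0.54 and -0.19, and the same count of 5 members rose.

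**Figure D1:**
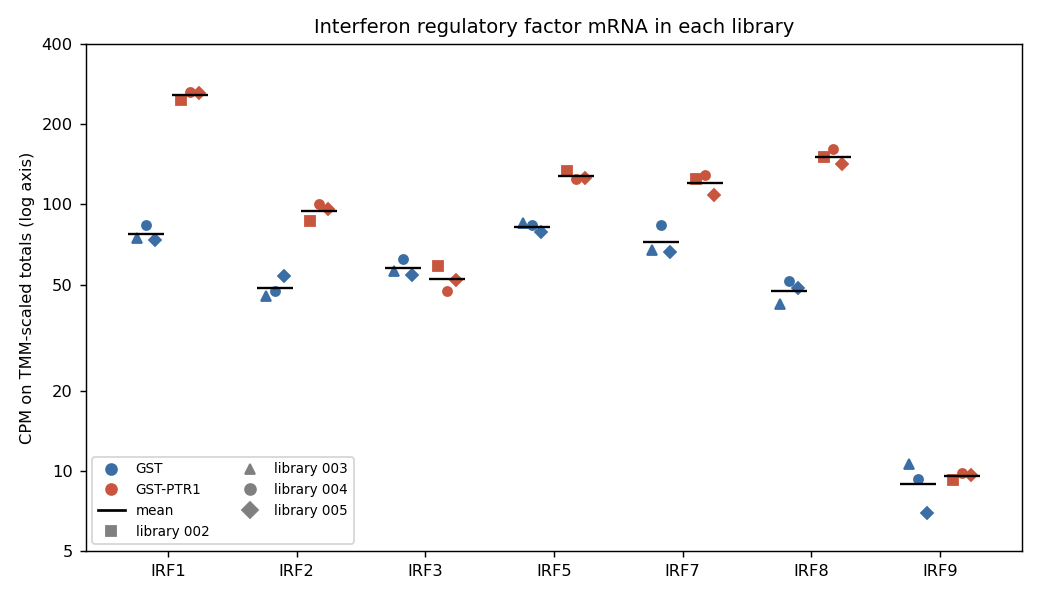
Level of each of the 7 interferon regulatory factors in CPM on TMM-scaled totals, on a log axis, in the 3 GST libraries (blue) and the 3 GST-PTR1 libraries (red). Points are libraries, the symbol gives the library number in the table's header, and black lines are means. The treatments do not overlap for IRF1, IRF2, IRF5, IRF7 and IRF8, and overlap for IRF3 and IRF9.

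IRF1, an activator that interferon-γ and NF-κB are known to induce, had the largest change of the family. Its gene (ENSG00000125347) lies on the minus strand of chromosome 5 of GRCh37, from 131817301 to 131826490. The IRF1 level was 75, 83.6 and 73.5 CPM in GST libraries 003, 004 and 005 and 247, 264 and 261 CPM in GST-PTR1 libraries 002, 004 and 005. The lowest GST-PTR1 library was well above the highest GST library. The mean was 77.4 ± 5.46 CPM with GST and 257 ± 9.31 CPM with GST-PTR1 (SD, n = 3 each). The rise was 3.32-fold, or 1.73 ± 0.10 (SE) on the log2 scale, with an adjusted p of 6.97e-07 in edgeR's quasi-likelihood test. The 95% interval from limma's voom fit was 1.51 to 1.95. IRF8, a partner of PU.1 on composite sites in B cells and myeloid cells, came next. It is encoded on the plus strand of chromosome 16, from 85932409 to 85956215 (ENSG00000140968). The IRF8 level was 42.3, 51.4 and 48.5 CPM with GST and 150, 161 and 142 CPM with GST-PTR1, in the same order of libraries. All 3 GST-PTR1 libraries were above all 3 GST libraries. The rise of IRF8 was 3.18-fold, or 1.67 ± 0.11 (SE) on the log2 scale (adjusted p = 1.63e-06 in the same edgeR test), with a voom interval of 1.43 to 1.91. The intervals of IRF1 and IRF8 overlapped each other and were above those of the other 5 members.

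IRF1 and IRF8 moved together, so their promoter windows are shown, with that of IRF9, which was not called. They come from RefSeq for GRCh38.p14, 250 bases before to 50 after a start site, and 4 of the 7 members had such windows (IRF1, IRF5, IRF8 and IRF9). Capitals mark matches, on either strand, to the gamma-activated site letters TTCNNNGAA, to the IRF core letters AANNGAAA, or to the κB consensus.
IRF1, chr5:132490724-132491023, minus strand: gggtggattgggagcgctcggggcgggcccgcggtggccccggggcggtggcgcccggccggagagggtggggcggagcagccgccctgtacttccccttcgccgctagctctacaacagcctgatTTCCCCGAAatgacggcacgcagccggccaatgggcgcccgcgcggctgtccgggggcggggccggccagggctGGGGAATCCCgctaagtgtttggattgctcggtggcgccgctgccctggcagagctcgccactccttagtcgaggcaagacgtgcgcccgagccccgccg
IRF8, chr16:85902580-85902879, plus strand: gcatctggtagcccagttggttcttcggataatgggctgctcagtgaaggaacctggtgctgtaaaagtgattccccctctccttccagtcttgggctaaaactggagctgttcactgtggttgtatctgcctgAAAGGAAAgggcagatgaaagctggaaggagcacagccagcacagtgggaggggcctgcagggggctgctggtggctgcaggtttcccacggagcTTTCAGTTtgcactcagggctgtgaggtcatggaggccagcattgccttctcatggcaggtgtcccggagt
IRF9, chr14:24161015-24161314, plus strand: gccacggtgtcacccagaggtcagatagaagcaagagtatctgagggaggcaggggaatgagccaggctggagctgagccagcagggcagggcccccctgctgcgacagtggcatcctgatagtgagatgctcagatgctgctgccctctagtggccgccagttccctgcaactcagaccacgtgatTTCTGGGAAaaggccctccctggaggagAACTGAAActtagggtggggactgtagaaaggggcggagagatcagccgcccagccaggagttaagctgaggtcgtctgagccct
The IRF1 window held TTCCCCGAA starting at -124 from the start site, a match to the gamma-activated site, and GGGGAATCCC starting at -50, a match to the κB consensus. Among 35116 promoter windows of the same length 7.66% held the first, 11.3% the κB consensus and 0.683% both. The IRF8 window held the IRF core on the plus strand at -116 and on the minus strand at -21, a motif that 22.8% of all windows contain. A second IRF8 window overlaps the first and holds the second of these matches again. The IRF9 window held TTCTGGGAA at -63, a match to the gamma-activated site, and AACTGAAA at -35, a match to the IRF core. The share of all windows holding this second pair of motifs was not computed. IRF5 had 4 windows, of which 1 held a single IRF core match at -33. None of the matches overlapped a match of another kind. These are matches of letters, and binding was not measured. Which start sites these cells used was not measured either, and the IRF8 windows may not lie at its main one. Gene positions given here are of GRCh37 and windows of GRCh38.p14, so their coordinates cannot be compared directly. The IRF8 windows held no match to the gamma-activated site or to the κB consensus. Sequence outside the windows was not searched, so this does not show that the IRF8 promoter lacks these motifs.

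IRF2, which is known to occupy the same sites as IRF1 and to restrain interferon-driven transcription, rose as well. Its gene (ENSG00000168310) is on the minus strand of chromosome 4 of GRCh37, from 185308867 to 185395734. The IRF2 level was 45.1, 47.3 and 53.7 CPM with GST and 86.9, 99.9 and 95.9 CPM with GST-PTR1. The treatments did not overlap. The rise of IRF2 was 1.93-fold, or 0.95 ± 0.11 (SE) on the log2 scale (adjusted p = 0.000117 in edgeR's quasi-likelihood test), with a voom interval of 0.71 to 1.19, which includes a 2-fold change.

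Of the members activated by phosphorylation, IRF7 and IRF5 rose and IRF3 did not pass the test. IRF7, the amplifier of type I interferon production, is on the minus strand of chromosome 11, from 612553 to 615999 (ENSG00000185507). It measured 67.6, 83.3 and 66.0 CPM with GST and 125, 129 and 108 CPM with GST-PTR1. GST library 004 was the highest of its treatment and GST-PTR1 library 005 the lowest, and the ranges stayed apart. The rise was 1.67-fold, or 0.74 ± 0.12 (SE) on the log2 scale (adjusted p = 0.00161 in the edgeR test). IRF5, which acts below Toll-like receptors and MyD88 on genes of inflammatory cytokines, is on the plus strand of chromosome 7, from 128577666 to 128590089 (ENSG00000128604). It measured 85.1, 83.3 and 79.0 CPM with GST and 133, 125 and 126 CPM with GST-PTR1. The treatments did not overlap, and the SD was 3.09 CPM with GST and 4.55 CPM with GST-PTR1. IRF5 rose 1.55-fold, or by 0.64 ± 0.09 (SE) on the log2 scale (adjusted p = 0.000785 in the edgeR test). IRF3, the early inducer of IFNB1 that most cells carry at all times, is on the minus strand of chromosome 19, from 50162826 to 50169132 (ENSG00000126456). It measured 56.3, 62.2 and 54.3 CPM with GST and 58.6, 47.2 and 51.9 CPM with GST-PTR1. The treatments overlapped, with GST-PTR1 library 002 above GST libraries 003 and 005. The log2 fold change of IRF3 was -0.13 ± 0.11 (SE; adjusted p = 0.426 in the edgeR test), and the voom interval of -0.39 to 0.11 reaches from a lower to a slightly higher level. BCL2L12 shares 310 exon bases with IRF3 on the opposite strand, 8.17% of the exon bases of IRF3, and was not called either (log2 fold change 0.04, adjusted p = 0.835 in the edgeR test). Counting was by strand, so reads of the pair were kept apart.

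IRF9, the DNA-binding subunit of the ISGF3 complex, was the least abundant member. Its gene (ENSG00000213928) is on the plus strand of chromosome 14, from 24630262 to 24635774. It measured 10.6, 9.31 and 6.92 CPM with GST and 9.20, 9.80 and 9.60 CPM with GST-PTR1. The GST libraries spanned the GST-PTR1 libraries on both sides. The log2 fold change of IRF9 was 0.10 ± 0.16 (SE; adjusted p = 0.699 in the edgeR test), with a voom interval of -0.23 to 0.49. This sign depends on the scaling, with a log2 fold change of -0.10 on library totals. It also turned when GST library 005 was left out, to -0.05. Of the exon bases of IRF9 48.4% are shared on the same strand with ENSG00000259529, and reads there were left out of the counts of both genes, so the level of IRF9 is a minimum.

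**Figure D2:**
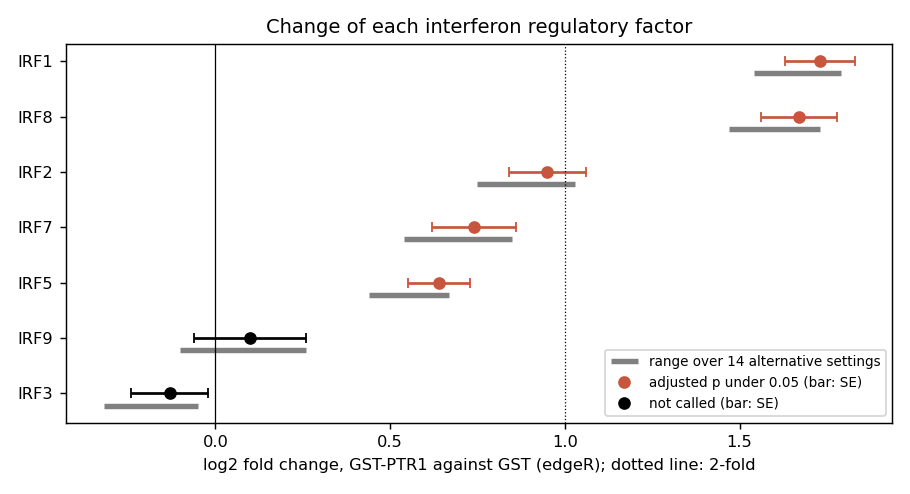
Log2 fold change of each factor, GST-PTR1 against GST, from the edgeR fit (points, with bars of 1 standard error) and its lowest to highest value over 14 alternative settings (grey). The dotted line marks a 2-fold change. IRF1 at 1.73 and IRF8 at 1.67 lie past it, IRF2 at 0.95 lies just short of it, and the grey ranges of all members but IRF9 stay on the same side of 0.

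Compared per length of exon, the order of the family differed between the treatments. This length merges all annotated exons of a gene, 7799 bases in 4 merged exons for IRF1 and 2628 bases in 5 for IRF7. Transcripts shorter than this give too low an RPKM, and transcript lengths were not measured. The order, percentiles and shares below therefore depend on the annotation. In CPM, which ignores length, IRF1 was the highest member with GST-PTR1, at 257 CPM beside 120 CPM for IRF7. With GST the mean levels ran from IRF7 at 27.5 RPKM through IRF5 at 18.8, IRF2 at 15.6, IRF3 at 15.2, IRF1 at 9.92 and IRF8 at 9.18 to IRF9 at 2.36 RPKM. The library ranges of IRF2 and IRF3 overlapped, as did those of IRF1 and IRF8, and the other neighbours were apart. With GST-PTR1 IRF7 was still the highest per length at 45.8 RPKM, followed by IRF1 at 33.0, IRF2 at 30.2, IRF5 at 29.3, IRF8 at 29.2, IRF3 at 13.9 and IRF9 at 2.51 RPKM. Here IRF1, IRF2, IRF5 and IRF8 formed a block in which each neighbouring pair overlapped. Among all genes tested the mean percentile of the RPKM level was 69.7 with GST and 87.9 with GST-PTR1 for IRF1. For IRF8 it was 67.9 and 86.4. IRF3 was at 78.3 and 74.8, and IRF9 at 36.7 and 39.3. Summed over the 7 members, the level was 98.6 ± 5.91 RPKM with GST and 184 ± 5.88 RPKM with GST-PTR1 (SD, n = 3 each), or 1.87-fold. The share of IRF1 in this sum was 10.1% with GST and 17.9% with GST-PTR1, and that of IRF3 was 15.4% and 7.53%. IRF4, outside the group, is the reference point for a plasma cell line. It rose from 275 ± 5.31 to 433 ± 24.7 CPM (log2 fold change 0.65, adjusted p = 0.00106 in edgeR's quasi-likelihood test), and per length its mean level of 46.6 RPKM with GST and 73.3 RPKM with GST-PTR1 was above that of every member.

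Ratios of counts within a library do not depend on the scaling between libraries, and 4 were compared. The ratio of the activator IRF1 to its antagonist IRF2 was 0.73, 0.82 and 0.45 on the log2 scale with GST and 1.5, 1.40 and 1.45 with GST-PTR1. These ranges were apart, and the mean log2 ratio was 0.78 higher with GST-PTR1. The IRF7 to IRF3 log2 ratio was 0.26, 0.42 and 0.28 with GST and 1.09, 1.45 and 1.06 with GST-PTR1, a difference of 0.87. The IRF5 to IRF3 log2 ratio was 0.60, 0.42 and 0.54 with GST and 1.19, 1.40 and 1.28 with GST-PTR1, a difference of 0.77. For each of these 3 ratios the two-sided exact permutation test gave p = 0.1, the smallest that 3 libraries against 3 allow, and 0.133 after Benjamini-Hochberg adjustment over the 4 ratios. The ratio of IRF9 to its partner STAT2 overlapped between the treatments, at -2.43, -2.67 and -2.74 with GST and -2.67, -2.15 and -2.56 with GST-PTR1 (difference 0.15, exact permutation p = 0.5).

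**Figure D3:**
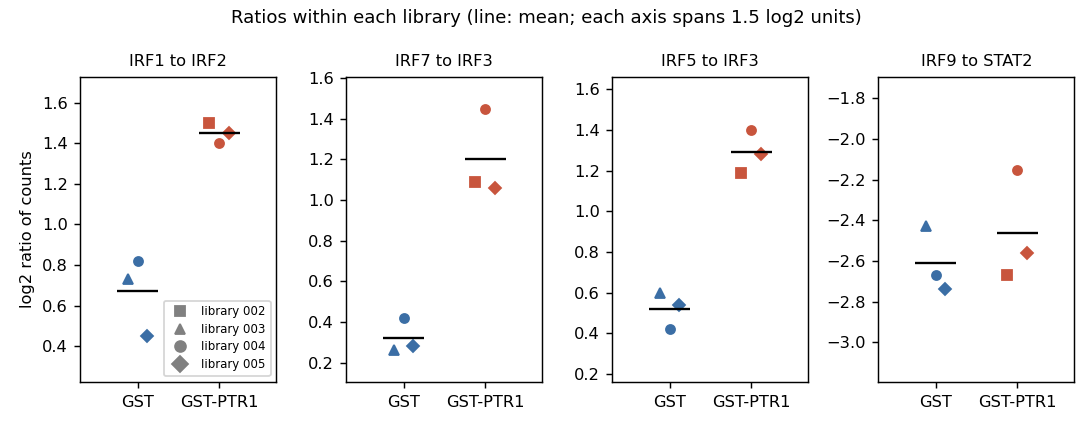
Log2 ratio of counts of 2 genes within each library, for GST (blue) and GST-PTR1 (red). Points are libraries, lines are means, and each panel spans the same range of log2 units. IRF1 to IRF2, IRF7 to IRF3 and IRF5 to IRF3 are higher in every GST-PTR1 library, and IRF9 to STAT2 overlaps.

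Upstream of the family, 18 of 22 listed receptors, sensors, adaptors and kinases were tested. Of these 17 passed the filter in both treatments, of which 9 rose and 1 fell, with a median log2 fold change of 0.38. Among all genes tested 9.15% were called higher and 11.4% lower, with a median of 0.01. Over all 18 genes 2 fell, and with library totals 7 rose and 4 fell, beside 5.48% and 22.4% of all genes. TLR7, an endosomal receptor for single-stranded RNA that signals to IRF5 and IRF7, rose from 16.4 ± 1.74 to 39.0 ± 1.67 CPM (adjusted p = 2.93e-05 in edgeR's quasi-likelihood test). TICAM1, the adaptor of TLR3 and TLR4, rose from 26.5 ± 2.87 to 61.7 ± 6.03 CPM, and IFIH1, a cytoplasmic sensor of double-stranded RNA, rose from 165 ± 27.1 to 397 ± 31.4 CPM. The 2 genes that fell, named after their values were seen, were the receptors TLR3 (log2 fold change -1.52), which passed the filter through the GST libraries only, and TLR4 (log2 fold change -0.36). The call of TLR4 was lost without any library but GST 003, with adjusted p values of 0.0602 without GST 004, 0.105 without GST 005, and 0.108, 0.0722 and 0.113 without GST-PTR1 002, 004 and 005 in the edgeR test.

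Of 12 binding partners and regulators 10 passed the filter in both treatments, of which 3 rose and 2 fell, with a median log2 fold change of -0.03. The shares over all genes tested were 9.15% higher and 11.4% lower, with a median of 0.01. SPIB and BATF3 passed it through the GST-PTR1 libraries only, where they were higher. BATF, an AP-1 factor that pairs with IRF4 and IRF8 on DNA, rose from 5.53 ± 0.909 to 160 ± 29.0 CPM, or by 4.85 ± 0.18 (SE) on the log2 scale (adjusted p = 2.29e-08 in edgeR's quasi-likelihood test). That was 28.8-fold, beside 3.18-fold for IRF8 itself. SPIB, an Ets factor related to PU.1, was low, at 0.614 ± 0.279 CPM with GST and 2.56 ± 0.584 CPM with GST-PTR1, while SPI1, which encodes PU.1, fell (log2 fold change -0.58, named after its value was seen). Its call was lost without GST-PTR1 library 005 (log2 fold change -0.53, adjusted p = 0.0557 in the edgeR test). The lymphoid factor IKZF1 rose from 137 ± 10.0 to 207 ± 15.9 CPM.

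Of 14 genes of interferon receptor signaling, all tested, 8 rose and 0 fell, with a median log2 fold change of 0.56. Over all genes tested 9.15% were called higher and 11.4% lower, with a median of 0.01. The edgeR test gave 1 lower gene at an unadjusted p under 0.05, and with DESeq2 and voom 0 were lower at an adjusted p under 0.05. With library totals 5 rose and 1 fell, beside 5.48% and 22.4% of all genes. SOCS1, a feedback inhibitor of JAK kinases, rose from 1.65 ± 0.643 to 18.5 ± 2.85 CPM (log2 fold change 3.47). IFNGR2, a chain of the interferon-γ receptor, rose from 58.8 ± 1.44 to 132 ± 16.1 CPM. STAT2, the partner of IRF9, was not called at 54.6 ± 7.0 and 53.3 ± 8.24 CPM. Of 21 interferon genes IFNB1 passed the filter in both treatments and IFNL1 through the GST-PTR1 libraries only, and 10 of the others had at most 3 counts in every library. IFNB1, the target of IRF3 and IRF7, rose from 1.28 ± 0.439 to 3.54 ± 1.08 CPM (log2 fold change 1.46, adjusted p = 0.00615 in the edgeR test). IFNL1 was at 0.458 ± 0.117 CPM with GST and 1.43 ± 0.548 CPM with GST-PTR1, and its call was lost when GST library 005 was left out (log2 fold change 1.45, adjusted p = 0.0526 in the edgeR test).

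The known target genes are given by list, and the lists were not tested against each other. Of 14 listed IRF1 target genes 9 passed the filter in both treatments. Of these 8 rose, 7 by at least 2-fold, and their median log2 fold change was 1.95. EBI3 and NOS2 passed through the GST-PTR1 libraries only, and IL15, IDO1 and VCAM1 were not tested. EBI3, a cytokine subunit, was at 0.434 ± 0.0513 CPM with GST and 46.2 ± 5.59 CPM with GST-PTR1. The guanylate-binding protein gene GBP2 rose from 1.06 ± 0.140 to 38.4 ± 3.95 CPM, and GBP1 from 7.53 ± 0.752 to 106 ± 14.2 CPM. Of 5 IRF5 target genes 4 passed the filter in both treatments. Of these 3 rose, each by at least 2-fold, and the median log2 fold change was 2.78. When 10 counts were required of each library, 1 gene of the list was called. TNF rose from 0.546 ± 0.109 to 13.4 ± 2.64 CPM and IL12B, which the IRF1 list also holds, from 4.96 ± 0.917 to 90.6 ± 29.3 CPM. IL6 passed the filter through the GST-PTR1 libraries only. It had at most 2 counts in any GST library and was at least 29.6-fold higher with GST-PTR1, against a floor of 3 counts per library. Of 22 listed target genes of IRF3, IRF7 and IRF9 21 were tested, all passing in both treatments. Of these 13 rose and 4 of these by at least 2-fold, with a median log2 fold change of 0.63. CXCL10 rose from 282 ± 106 to 8634 ± 2502 CPM, well past the rest of its list. HERC5 rose from 111 ± 15.8 to 263 ± 21.8 CPM and OAS3, an antiviral synthetase, from 66.8 ± 10.6 to 164 ± 29.3 CPM. In these 3 lists 0 genes fell in edgeR's test, also at an unadjusted p under 0.05 and with DESeq2 and voom. Many of these genes, among them EBI3, TNF, IL6, IL12B and CXCL10, are also known targets of NF-κB, and the part of each factor in their rise was not tested.

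**Figure D4:**
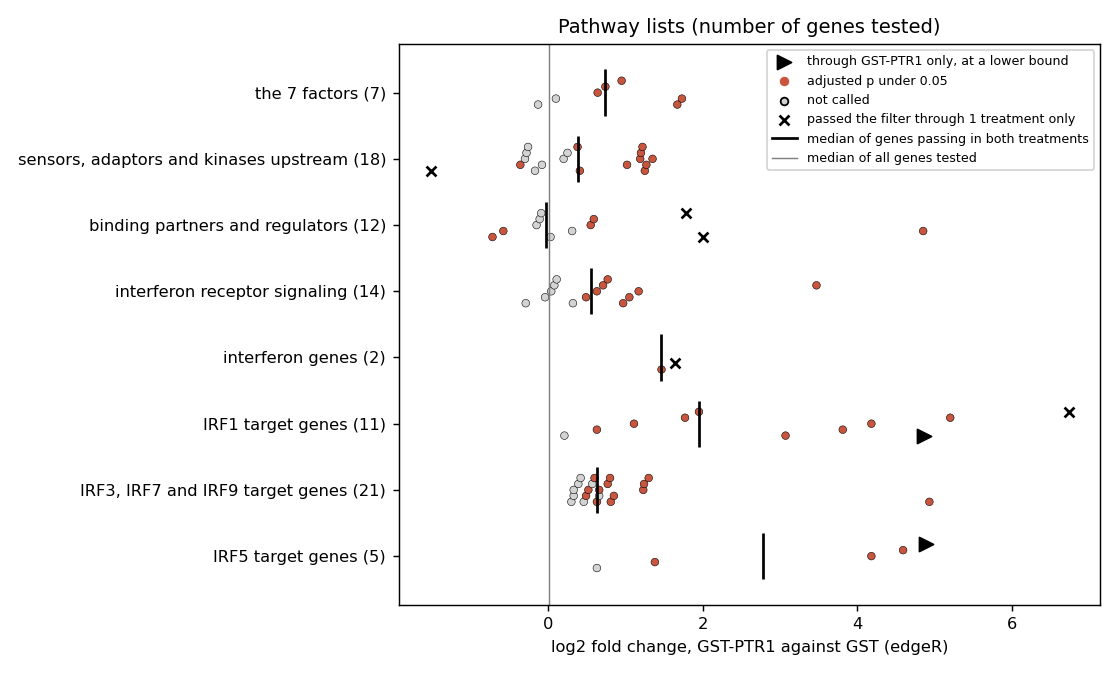
Log2 fold changes, GST-PTR1 against GST, of the tested genes of each list (numbers in brackets), with called genes in red, others in grey and the median of all genes tested as a thin grey line. Crosses are genes that passed the filter through 1 treatment only, triangles are such genes (NOS2 and IL6) at a lower bound, and black lines are medians over the other genes of the list. The 7 factors sit at a median of 0.74, the IRF1 target genes at 1.95 and the IRF3, IRF7 and IRF9 target genes at 0.63. The IRF5 target genes sit at 2.78, over 4 genes. The lists were chosen with earlier results of these data known.

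For each member that rose, the other genes with the closest profile over the 6 libraries were found among 13360 genes, by Euclidean distance of mean-centred log2 CPM. For IRF1 these were VAV1, TRIP10 and MFSD2A at distances of 0.119, 0.167 and 0.182. VAV1, a guanine nucleotide exchange factor of blood cells, rose from 60.1 ± 1.53 to 194 ± 5.93 CPM. For IRF8 they were GIMAP4 at 0.196, ATP1B1 at 0.206 and IRF1 itself at 0.223. Closest to IRF7 were RPL13AP6 at 0.129, MX2, an interferon-induced antiviral gene, at 0.161 and HLA-E, a nonclassical class I gene, at 0.186. Closest to IRF5 were EIF2S2P1 at 0.0169, MACIR at 0.0976 and RFX5, a regulator of class II genes, at 0.103. IRF2 was nearest to B4GALT4, FAAH2 and C21orf91 at 0.128, 0.140 and 0.143. The names EIF2S2P1 and RPL13AP6 are those of pseudogenes, whose counts can be affected by reads of their parent genes. These distances describe 6 libraries in which many genes share the difference between treatments.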

How the data were processed

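RNA was measured in RPMI8226 cells after 6 hr with 100 nM GST or 100 nM GST-PTR1, 3 libraries each. Per the labels and file headers, libraries were strand-specific, and the authors counted reads per gene with featureCounts version 1.5.0-p1 on the Ensembl release 75 annotation of GRCh37, by strand. Reads at several places or on several genes of a strand were left out. The aligner version is not given in the sources used here. The deposited values are raw, whole-number counts, without normalization, and the deposited exon length of each gene was used for RPKM.

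Treatments were compared with edgeR 4.0.16 under R 4.3.3, using TMM factors, the filterByExpr filter and the quasi-likelihood functions glmQLFit and glmQLFTest. The p-values were adjusted by Benjamini-Hochberg across 16926 genes. Standard errors are the absolute log2 fold change divided by the square root of F. Intervals are from voom in limma 3.58.1. Profiles used log2 CPM, and ratios log2 counts, with a prior count of 2. Ratios were compared with exact permutation tests (scipy 1.17.1). The fits were first tested on simulated data. Depth was 15202503 to 44688737 counts per library, and a floor of 3 counts covers counting error only.

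Column names gave each library its treatment. Deviations of libraries sharing a number correlated at r = -0.0291 over 16926 genes, across genes, which are not independent replicates. Within each treatment no pair of libraries was a duplicate, with a chi-square per gene from 7.66 (GST 004 and 005) to 41.5 (GST-PTR1 002 and 004). Pairs across the treatments were not compared in this way.

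The members and all lists were chosen with earlier results of these data known. The lists were written from general knowledge. Named were all members, IRF4, the 3 tested genes with the smallest adjusted p of each list, genes sharing exons with a member, and for each called member the 3 genes with a mean count of at least 50 and the closest profile. Some single genes that this rule covers are not reported here. Of the listed genes IKBKE and CCL5 were not analysed here. Alternatives were DESeq2 1.42.0 (size factors or Wald test), library totals, voom, filters of at least 1 count in any or 10 counts in every library, each library omitted in turn, libraries 004 and 005 alone with and without their number as a block, a 1.5-fold threshold, and prior counts of 0.5 or 5. Genes of a list were counted apart where they reached the filter's minimum of 0.432 CPM on library totals in all 3 libraries of 1 treatment only, a split added after seeing the data. Motifs were searched in 35116 RefSeq promoter windows of GRCh38.p14. Figures were made with Python 3.11.15 and matplotlib 3.10.9.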

Additional observations from a re-analysis of the deposited data

How the results depend on the processing

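Each called member (IRF1, IRF2, IRF5, IRF7 and IRF8) was called in all 14 alternatives of its fold change, and IRF3 and IRF9 in 0 of 14. Log2 fold changes ran from 1.54 to 1.79 for IRF1, 1.47 to 1.73 for IRF8, 0.75 to 1.03 for IRF2, 0.54 to 0.85 for IRF7, 0.44 to 0.67 for IRF5, -0.32 to -0.05 for IRF3 and -0.10 to 0.26 for IRF9, and the adjusted p of IRF3 from 0.0871 to 0.844 and of IRF9 from 0.356 to 0.817. IRF9 turned to -0.10 with library totals and to -0.05 without GST library 005 (-0.05 to 0.23 over libraries left out), and BCL2L12 to -0.16 and -0.01 under the same settings (-0.01 to 0.12). STAT2 turned to 0.03 and 0.10 without GST and GST-PTR1 library 004 (-0.14 to 0.10). With library totals 7 genes of the pathway lists fell in place of 4, and leaving out 1 library at a time gave 2 to 4, with 2 without GST-PTR1 library 005. For the upstream list the genes that fell were 2, 4 with library totals and 1 without any library but GST 003, and for interferon receptor signaling 5 rose and 1 fell with library totals in place of 8 and 0. The cause was not tested. At a threshold of 1.5-fold 5 members passed in place of 2. Among the values that answer a comparison, 196 of those under alternatives kept their direction and their side of the threshold, or as counts stayed within 1.5-fold. A further 3 counts moved by more and 2 values turned sign. The 196 include counts that were 0 throughout. Among the other values 751 stayed the same, 26 counts moved, 10 lost their call and 4 turned sign.

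No fit paired by the samples' replicate numbers could be made, since the header's library numbers cannot be matched to them. The header numbers shared by both treatments gave a fit of 4 libraries. Between libraries 004 and 005 of each treatment, with the header number as a replicate block, the member log2 fold changes were 1.74 for IRF1, 1.60 for IRF8, 0.96 for IRF2, 0.67 for IRF7, 0.63 for IRF5, 0.26 for IRF9 and -0.23 for IRF3, and 5 members were called. With 3 libraries a treatment, small changes of IRF3 and IRF9 were within the error. The edgeR p-values set a difference between treatments against the variation between these libraries, estimated with information shared across genes.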
